A study of Mus musculus with 6 samples.

Results

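The RNAs described here are the small nuclear, nucleolar and other structured non-coding RNAs of mouse pancreatic islets. They were taken by name: every gene name in the deposited table that starts with SNORA, SNORD, SCARNA or RNU, and Rn7sk, Rn7s1, Rn7s2, Rpph1, Rmrp, Terc and Vaultrc5. The rule found 171 of 48321 names, made up of 98 SNORD, 40 SNORA, 9 SCARNA and 17 RNU names and the 7 others. Of these, 66 were listed at 0 in each library, and 105 were above 0 in at least 1.

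RNA from isolated islets of C57BL6 mice, all labelled WT, was sequenced for 2 diets. The high-fat group ate a diet with 60% of its calories from fat for 4 months from the age of 3 months, and the other group ate normal chow, with no age or feeding time given in the labels. Each diet has 3 samples. Nothing in the labels ties them to separate animals, so a p-value below reflects sample-to-sample spread that could be purely technical. For 48321 of 48321 names, chow replicate 2 was the exact average of chow replicates 1 and 3. Its column was left out, which leaves 3 high-fat and 2 chow libraries. Values are CPM, read counts scaled to the library's total. Over all names they summed to 963615, 832416 and 879301 CPM in high-fat replicates 1, 2 and 3. In chow replicates 1 and 3 they summed to 841705 and 674482 CPM, so the total used for scaling was not the sum over these names.

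The low values of the table imply 23.5 to 35.1 M reads per high-fat library and 18.8 and 24.7 M reads per chow library. A level of 3 reads then lies between 0.0856 and 0.128 CPM for high-fat islets and at 0.160 and 0.122 CPM for chow islets, a floor that covers counting error only. Islet endocrine markers were all present, with Ins2 at 41203, 45461 and 41260 CPM in high-fat islets and at 28777 and 41053 CPM in chow islets. Gcg and Ppy varied more between chow replicates 1 and 3, at 10102 and 2332 CPM and at 854 and 2907 CPM. In high-fat replicates 1, 2 and 3, Gcg was at 10524, 11499 and 11992 CPM and Ppy at 1147, 935 and 1043 CPM. Acinar markers, of enzyme-secreting exocrine cells, were all 21 detected and took up 10.1%, 1.36% and 4.04% of the summed CPM in high-fat replicates 1, 2 and 3 and 20.6% and 8.22% in chow replicates 1 and 3. In whole islets, fewer cells of a type and less RNA per cell cannot be told apart. The sample names change their prefix together with the diet, and how the libraries were prepared is not given in the sources used here. Library preparation and diet therefore cannot be told apart for any RNA below.

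These RNAs work as RNA, bound to proteins, and most carry no poly(A) tail. RNA polymerase III makes the RNAs of the signal recognition particle, ribonuclease P, the mitochondrial RNA processing ribonuclease and the vault, as well as 7SK and U6. RNA polymerase II makes the other spliceosomal RNAs, U3 and the telomerase RNA from their own promoters. Most box C/D snoRNAs (SNORD names), which guide ribose methylation, and box H/ACA snoRNAs (SNORA names), which guide pseudouridylation, are cut out of the introns of host genes, and the scaRNAs do the same for spliceosomal RNAs in Cajal bodies. Among the members, 8 are polymerase III genes, 18 are polymerase II genes with a promoter of their own, 137 lie inside a host gene on the same strand and 8 lie in no annotated host. Of the 137, 74 lie wholly in introns and 63 overlap an exon of at least 1 annotated host transcript.

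The members together took up 3.26%, 3.20% and 2.38% of the summed CPM in high-fat replicates 1, 2 and 3, against 0.00156% and 0.00285% in chow replicates 1 and 3. The diets were far apart, and nearly all of the high-fat sum came from 5 RNAs. Rn7s1, Rn7s2, Rpph1, Rn7sk and Rmrp made up 99.6%, 99.6% and 99.5% of the members' sum in the high-fat libraries and 69.3% and 83.4% in the chow libraries. The other 166 members summed to 111, 102 and 102 CPM in high-fat islets and to 4.04 and 3.19 CPM in chow islets. By polymerase, the 8 polymerase III genes summed to 31337, 26502 and 20791 CPM in high-fat islets and to 9.12 and 16 CPM in chow islets. The 18 polymerase II genes with their own promoters summed to 89.4, 86.8 and 89.0 CPM in high-fat islets and to 1.60 and 1.14 CPM in chow islets. The 137 members inside host genes summed to 19.7, 13.0 and 10.7 CPM in high-fat islets and to 1.95 and 1.73 CPM in chow islets. Every one of these sums was higher in each high-fat library than in either chow library.

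**Figure D1:**
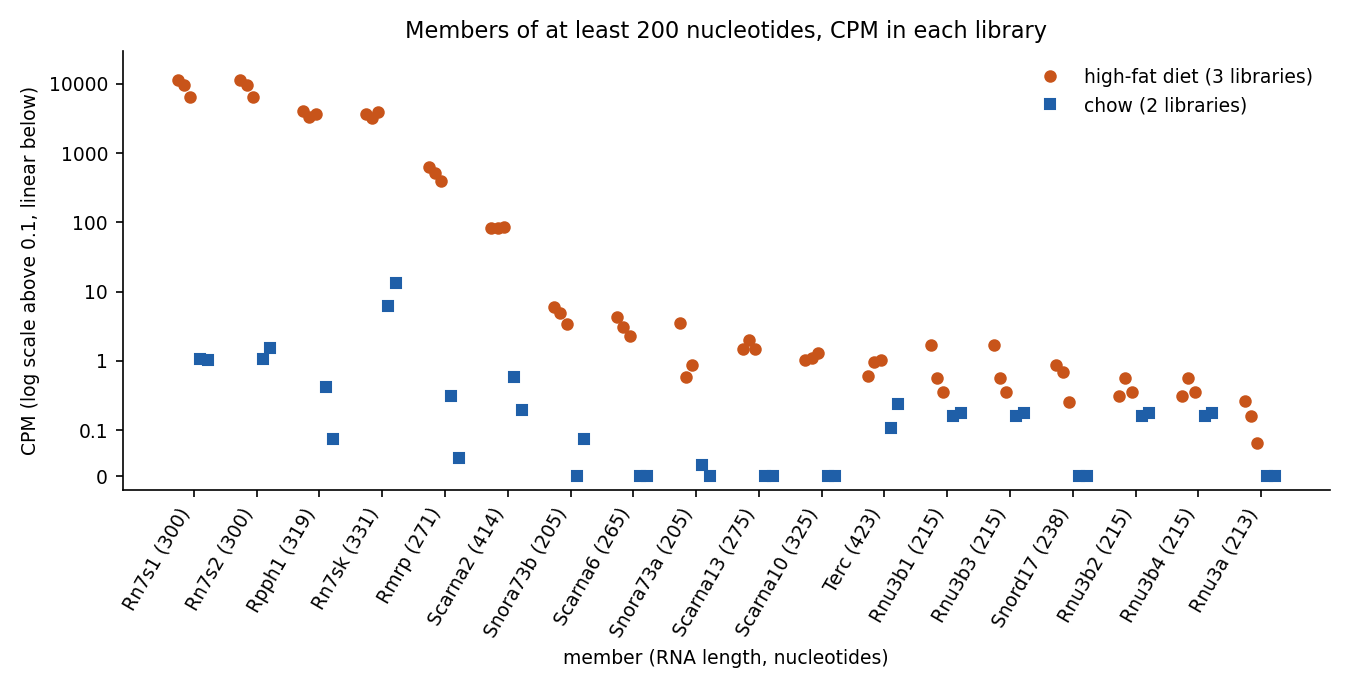
CPM of the 18 members of at least 200 nucleotides in each library, high-fat islets as circles and chow islets as squares, on an axis that is logarithmic above 0.1 CPM and linear below. The 3 high-fat points lie above both chow points for each of the 18 members, some of which are copies with the same RNA. The levels in high-fat islets run from a mean of 9216 CPM for Rn7s1 to 0.167 CPM for Rnu3a.

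Differences between the diets were tested with limma on log2(CPM + 1) over the 16939 names with a mean of at least 0.5 CPM, and called at a Benjamini-Hochberg adjusted p below 0.05. Over all of these names, 14.9% were called higher and 8.78% lower in high-fat islets. Only 15 members reached the mean, most of them through their high-fat libraries alone, so the share called among them carries no weight. Of the 15, 12 were called higher and 0 lower, and limma also gave 0 lower at an unadjusted p below 0.05. The 15 include Rn7s1 with Rn7s2 and Rnu3b1 with Rnu3b3, each a pair of genes with the same annotated RNA. The just included RNAs were Rnu3b1 and Rnu3b3 with a mean over the 5 libraries of 0.588 CPM, and the first left out was Snord17 at 0.365 CPM. With no filter, 105 members were tested among 39352 names, of which 2.74% were called higher and 1.46% lower. In that fit 10 members were called higher and 0 lower, with 19 and 3 at an unadjusted p below 0.05. The share of all names at an unadjusted p was not counted, so such counts here and below have no background beside them.

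The signal recognition particle RNA (7SL RNA), which carries ribosomes that make secreted proteins to the endoplasmic reticulum, was the most abundant member in high-fat islets. It is encoded by Rn7s1 and Rn7s2, whose annotated RNAs are identical over all 300 bases, so reads of the 2 genes cannot be told apart. Rn7s1 was at 11503, 9748 and 6398 CPM in high-fat replicates 1, 2 and 3, against 1.06 and 1.03 CPM in chow replicates 1 and 3. Rn7s2 was at 11503, 9748 and 6398 CPM in high-fat islets and at 1.06 and 1.53 CPM in chow islets. For each gene the lowest high-fat library stood far above the highest chow library. The log2 difference was 12.10 ± 0.23 (SE) for Rn7s1 (limma adjusted p = 3.36e-07) and 11.94 ± 0.25 for Rn7s2 (limma adjusted p = 3.95e-07). On the plain CPM scale the mean of Rn7s1 was 8833 times that in chow islets, with about 20 and 25 reads behind its chow values.

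Gene copies related to 7SL RNA outside the naming rule, chosen after their values were seen, stood apart in the same way. Gm22567, an annotated RNA whose aligned bases are 92.6% identical to Rn7s1, was at 190, 162 and 73.2 CPM in high-fat islets and at 0 and 0.0675 CPM in chow islets. Gm26461, 96.5% identical over its aligned bases, was at 91.0, 69.6 and 57.0 CPM in high-fat islets and at 0 and 0.0485 CPM in chow islets. How the authors assigned reads that match several copies is not given in the sources used here, so the split between the copies is uncertain. Of the 7 SRP protein genes tested, limma called 0 higher and 1 lower (14.3%, beside 8.78% of all tested names). The counts were the same at an unadjusted p below 0.05. Srp54a, the subunit that binds signal peptides, was at 45.3, 42.9 and 45.6 CPM in high-fat islets and at 69.9 and 65.1 CPM in chow islets (log2 difference -0.59 ± 0.08, limma adjusted p = 0.00377). The median log2 difference of the 7 was -0.11, against 0.05 over all tested names.

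7SK RNA holds the transcription elongation kinase P-TEFb inactive together with Hexim1, which binds the hairpin at the start of the RNA. The first 110 of the 331 bases of Rn7sk (GRCm38 chr9:78175303-78175633, minus strand) are shown for that hairpin, with the letters GATC in capitals. They occur 3 times there, and 55 of the 171 members (32.2%) hold GATC at least once in their first 110 bases on the RNA strand.
Rn7sk: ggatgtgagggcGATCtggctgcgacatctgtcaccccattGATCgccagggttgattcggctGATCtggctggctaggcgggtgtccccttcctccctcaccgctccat
Rn7sk was at 3626, 3192 and 3935 CPM in high-fat replicates 1, 2 and 3, against 6.27 and 13.3 CPM in chow replicates 1 and 3. It was the most abundant member in chow islets, where its mean of 9.79 CPM was above those of Rn7s1 and Rn7s2. The log2 difference was 8.45 ± 0.27 (limma adjusted p = 3.2e-06), and the ratio of the means was 366. Of the 7 tested genes of the 7SK particle and P-TEFb, 1 was called higher (14.3%, beside 14.9% of all tested names) and 0 lower. At an unadjusted p below 0.05, limma gave 2 higher and 1 lower. Hexim1 was at 65.5, 57.5 and 62.3 CPM in high-fat islets and at 35.0 and 49.3 CPM in chow islets (log2 difference 0.56 ± 0.15, limma adjusted p = 0.0338). Cdk9, the kinase of P-TEFb, was at 25.7, 24.3 and 25.7 CPM in high-fat islets and at 23.0 and 27.4 CPM in chow islets (limma adjusted p = 0.969).

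Rpph1, the catalytic RNA of ribonuclease P that trims the leader of transfer RNAs, was at 4082, 3294 and 3663 CPM in high-fat replicates 1, 2 and 3. In chow replicates 1 and 3 it was at 0.425 and 0.0810 CPM, worth about 8 and 2 reads. The log2 difference was 11.53 ± 0.15 (limma adjusted p = 8.44e-08), and it depends on the added 1 because the chow values lie near the floor. Rmrp, the RNA of the related ribonuclease that cuts precursor ribosomal RNA, was at 622, 521 and 397 CPM in high-fat islets and at 0.314 and 0.0405 CPM in chow islets (log2 difference 8.76 ± 0.19, limma adjusted p = 5.98e-07). Both RNAs were close to absent from the chow libraries and abundant in the high-fat ones. Of the 11 tested protein genes of these particles, 0 were called higher and 1 lower (9.09%, beside 8.78% of all tested names). At an unadjusted p below 0.05 the counts were 1 and 2. Pop4, a subunit of both, was at 2.74, 3.57 and 2.85 CPM in high-fat islets and at 5.26 and 4.5 CPM in chow islets (log2 difference -0.54 ± 0.16, limma adjusted p = 0.0491).

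The neighbours of these genes did not share the difference in size. Ccdc107, which overlaps Rmrp on the opposite strand, was at 5.16, 5.79 and 5.74 CPM in high-fat islets and at 7.13 and 6.22 CPM in chow islets (log2 difference -0.22 ± 0.13, limma adjusted p = 0.253). Parp2, beside Rpph1, was at 8.56, 7.36 and 10.3 CPM in high-fat islets and at 9.62 and 10.4 CPM in chow islets (log2 difference -0.19 ± 0.15, limma adjusted p = 0.39). Both genes were chosen for their position after the members' values were seen.

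The remaining polymerase III genes were near or at 0. Vaultrc5, an RNA of the vault particle, was at 0, 0.0571 and 0 CPM in high-fat islets and at 0 CPM in both chow libraries. Rnu6, the U6 RNA of the spliceosome, was listed at 0 in all 5 libraries, and the U6 copy Rnu6-ps2 was above 0 in chow replicate 1 only, at 0.00102 CPM. The annotated lengths set these genes apart from the abundant ones, with 143 nucleotides for Vaultrc5 and 107 for both U6 genes, against 271 to 331 for the 5 RNAs above. Of 13 RNA polymerase III genes tested, 2 were called higher (15.4%, beside 14.9% of all tested names) and 0 lower. At an unadjusted p below 0.05, limma gave 3 and 1. Polr3d was at 16.6, 16.4 and 16.8 CPM in high-fat islets and at 11.5 and 13.6 CPM in chow islets (log2 difference 0.38 ± 0.11, limma adjusted p = 0.0402), and Polr3b, the second-largest subunit, differed by 0.32 ± 0.09 (limma adjusted p = 0.0494). Of 12 genes of polymerase III initiation, 1 was called in each direction, both of them subunits of the factor TFIIIC. That is 8.33% each way, beside 14.9% higher and 8.78% lower over all tested names. Gtf3c1 was at 122, 119 and 138 CPM in high-fat islets and at 69.0 and 92.4 CPM in chow islets (log2 difference 0.66 ± 0.14, limma adjusted p = 0.0177), and Gtf3c6 differed by -0.70 ± 0.19 (limma adjusted p = 0.0383).

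Among the abundant RNAs, levels per length could be set beside each other within a library. The sum of Rn7s1 and Rn7s2, which share 1 RNA, was 7, 6.74 and 3.59 times the level of Rn7sk per base in high-fat replicates 1, 2 and 3, and 0.372 and 0.212 times in chow replicates 1 and 3. Rpph1 per base was 5.58, 5.37 and 7.83 times Rmrp in high-fat islets, and 1.15 and 1.70 times in chow islets, where few reads stand behind either RNA. The mean levels per kilobase in high-fat islets were 30722 CPM for Rn7s1, 11535 for Rpph1, 10828 for Rn7sk, 1894 for Rmrp and 202 for Scarna2. Rpph1 and Rn7sk did not differ beyond their spread, with 3680 ± 395 and 3584 ± 373 CPM (SD, n = 3), and changed places in high-fat replicate 3.

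Terc is the RNA template from which telomerase copies telomere repeats. The first 120 of its 423 bases (GRCm38 chr3:96414437-96414859, minus strand) are shown with part of that template in capitals, the letters CTAACCC. On the RNA strand, 2 of the 171 members hold these letters in their first 120 bases (1.17%).
Terc: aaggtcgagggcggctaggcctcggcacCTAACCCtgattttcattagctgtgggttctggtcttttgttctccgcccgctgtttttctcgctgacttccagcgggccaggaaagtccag
Terc was at 0.602, 0.978 and 1.03 CPM in high-fat replicates 1, 2 and 3, against 0.106 and 0.243 CPM in chow replicates 1 and 3. The groups did not overlap, and the log2 difference was 0.66 ± 0.17 (limma adjusted p = 0.035). The call was lost without chow replicate 1 (limma adjusted p = 0.153) and without chow replicate 3 (limma adjusted p = 0.0578), where chow is a single library of 6 or 2 reads, and without high-fat replicate 2 or 3 the RNA was below the filter. Tert, the protein that reads this template, was at 6.08, 6.53 and 6.73 CPM in high-fat islets and at 2.82 and 3.44 CPM in chow islets (log2 difference 0.85 ± 0.14, limma adjusted p = 0.0076). It was the 1 gene called among the 5 tested genes of telomerase and the Cajal body (20%, beside 14.9% higher over all tested names).

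The spliceosomal RNAs among the members were low in both diets. U2 RNA pairs with the branch point of introns through its letters GTAGTA, in capitals in the 191 bases of Rnu2-10 (GRCm38 chr11:101658238-101658428, plus strand), and no other member holds them.
Rnu2-10: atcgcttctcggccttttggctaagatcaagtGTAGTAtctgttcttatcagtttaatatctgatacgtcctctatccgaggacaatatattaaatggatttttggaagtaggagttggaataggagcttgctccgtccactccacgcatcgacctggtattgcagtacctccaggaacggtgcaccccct
Rnu2-10 was at 1.86, 0.727 and 0.658 CPM in high-fat replicates 1, 2 and 3, against 0.00886 and 0 CPM in chow replicates 1 and 3. The log2 difference was 1.01 ± 0.26 (limma adjusted p = 0.0325), a size that depends on the added 1. The call was lost without high-fat replicate 2 (limma adjusted p = 0.0618), high-fat replicate 3 (0.0506), chow replicate 1 (0.114) and chow replicate 3 (0.0822), and without high-fat replicate 1 the RNA was below the filter. Gm24497, an annotated snRNA with 2 mismatches to Rnu2-10 over 191 bases, was at 2.50, 2.70 and 2.30 CPM in high-fat islets and at 0.00886 and 0.0203 CPM in chow islets. Gm23472 and Gm23444, also annotated snRNAs of 191 nucleotides, had the same values as Gm24497. Gm25939, of the same type and length, had a mean of 2.49 CPM in high-fat islets and 0.0146 CPM in chow islets. All of these were chosen after their values were seen, and reads of the U2 copies may have been shared out among them.

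The other spliceosomal RNAs among the members gave almost no reads. Rnu1b1 and Rnu1b2, copies of the U1 RNA that pairs with the start of introns, were each at 0.0135, 0.0137 and 0 CPM in high-fat islets and at 0 CPM in chow islets. Rnu12, of the minor spliceosome, was above 0 in high-fat replicate 2 only, at 0.0143 CPM, and Rnu5g in chow replicate 3 only, at 0.00074 CPM. Rnu1a1, Rnu11 and Rnu7, the last of which serves histone messages, were listed at 0 in each library. All of these values lie under 3 reads, and the RNAs were named after their values were seen. Their annotated lengths run from 62 to 166 nucleotides, against 191 for Rnu2-10.

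The messages for proteins of these particles were tested in the same fit. Of 16 tested genes of the Sm and LSm rings, which wrap spliceosomal RNAs, 1 was called higher and 3 lower. Lsm5 was at 0.147, 0.0934 and 0.203 CPM in high-fat islets and at 2.49 and 2.54 CPM in chow islets (log2 difference -1.61 ± 0.15, limma adjusted p = 0.000728). Snrpe differed by -0.65 ± 0.16 (limma adjusted p = 0.0292), Snrpf by -0.71 ± 0.19 (limma adjusted p = 0.0392) and Lsm4 by 0.35 ± 0.10 (limma adjusted p = 0.0449). Of 23 tested proteins specific to 1 kind of particle, 1 was called higher and 4 lower. Pdcd7, a protein of the minor spliceosome, was at 271, 196 and 100.2 CPM in high-fat islets and at 13.8 and 15.9 CPM in chow islets (log2 difference 3.48 ± 0.37, limma adjusted p = 0.00138). Zcrb1 and Rnpc3, also of the minor spliceosome, differed the other way, by -0.56 ± 0.08 (limma adjusted p = 0.00528) and -0.58 ± 0.12 (limma adjusted p = 0.018), and Snrpa1 of the U2 particle by -0.53 ± 0.14 (limma adjusted p = 0.0347). The shares called in the 2 lists, 6.25% and 4.35% higher and 18.8% and 17.4% lower, stand beside 14.9% higher and 8.78% lower over all tested names.

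U3 RNA, made by 4 Rnu3b genes and Rnu3a, guides the first cuts of precursor ribosomal RNA and belongs to the box C/D family. Rnu3b1 (GRCm38 chr11:87443237-87443451, plus strand) is shown with the letters TGATGA and CTGA, those of boxes C and D, in capitals. Rnu3b2, Rnu3b3 and Rnu3b4 are identical to it over all 215 bases, and Rnu3a matches it at 86.8% of the aligned bases. Anywhere in the RNA, 86 of the 171 members hold TGATGA (50.3%) and 147 hold CTGA (86%).
Rnu3b1: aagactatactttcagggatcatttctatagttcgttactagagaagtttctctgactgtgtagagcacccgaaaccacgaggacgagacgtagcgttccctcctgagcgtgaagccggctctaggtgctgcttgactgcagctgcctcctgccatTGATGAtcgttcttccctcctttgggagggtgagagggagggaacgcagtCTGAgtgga
Rnu3b1 and Rnu3b3 had the same values, 1.68, 0.573 and 0.354 CPM in high-fat replicates 1, 2 and 3 and 0.160 and 0.175 CPM in chow replicates 1 and 3. Rnu3b2 and Rnu3b4 were at 0.316, 0.573 and 0.354 CPM in high-fat islets and at 0.160 and 0.175 CPM in chow islets. The 2 pairs of copies thus differed in high-fat replicate 1 alone. The 4 genes summed to 3.99, 2.29 and 1.42 CPM in high-fat islets and to 0.638 and 0.699 CPM in chow islets, with no overlap. Rnu3b1 differed by 0.61 ± 0.29 on the log2 scale and was not called (limma adjusted p = 0.166). Rnu3a, named after its values were seen, was at 0.268, 0.162 and 0.0715 CPM in high-fat islets and at 0 in both chow libraries.

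Of the scaRNAs, the 4 with the highest means were called higher in high-fat islets. They reached those means and the filter through their high-fat libraries alone, so being both highest and called carries no weight. Scarna2, made from its own promoter, was at 82.4, 82.5 and 85.8 CPM in high-fat replicates 1, 2 and 3, against 0.585 and 0.198 CPM in chow replicates 1 and 3 (log2 difference 5.94 ± 0.13, limma adjusted p = 6.62e-07). Its chow values are worth about 11 and 5 reads. Scarna6 was at 4.30, 3.08 and 2.26 CPM, Scarna13 at 1.48, 2.03 and 1.5 CPM and Scarna10 at 1.02, 1.09 and 1.31 CPM in high-fat islets, and all 3 were listed at 0 in both chow libraries. Their log2 differences, which depend on the added 1, were 2.05 ± 0.22, 1.41 ± 0.16 and 1.09 ± 0.15 (limma adjusted p = 0.00165, 0.00211 and 0.00413). The other 5 scaRNAs did not exceed a mean of 0.197 CPM in either diet, and 2 of them were listed at 0 throughout. The 4 high scaRNAs are 265 to 414 nucleotides long and the other 5 are 70 to 140.

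Among the SNORA names, only Snora73b and Snora73a exceeded a mean of 1 CPM in high-fat islets. Both are copies of U17, which takes part in cutting precursor ribosomal RNA, and both lie within Rcc1 and the host RNA Snhg3, where Snora73b is intronic and Snora73a overlaps an annotated exon. They differ at 7 of 205 bases, in capitals below, where Snora73a lies at GRCm38 chr4:132352775-132352979 and Snora73b at chr4:132352322-132352526, both on the minus strand.
Snora73b: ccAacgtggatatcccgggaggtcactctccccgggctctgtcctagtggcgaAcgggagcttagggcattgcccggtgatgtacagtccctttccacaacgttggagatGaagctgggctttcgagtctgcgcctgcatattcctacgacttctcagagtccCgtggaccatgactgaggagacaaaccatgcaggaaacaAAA
Snora73a: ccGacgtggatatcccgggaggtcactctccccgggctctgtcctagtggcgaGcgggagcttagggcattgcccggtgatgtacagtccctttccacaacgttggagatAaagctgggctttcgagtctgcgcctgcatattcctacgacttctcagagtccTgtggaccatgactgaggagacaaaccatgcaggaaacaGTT
Snora73b was at 6, 4.92 and 3.40 CPM in high-fat replicates 1, 2 and 3, against 0 and 0.0803 CPM in chow replicates 1 and 3 (log2 difference 2.45 ± 0.22, limma adjusted p = 0.000672). Snora73a was at 3.56, 0.596 and 0.885 CPM in high-fat islets and at 0.0254 and 0 CPM in chow islets. Its groups did not overlap, but high-fat replicate 1 stood at 212% of the group's mean, and it was not called (log2 difference 1.24 ± 0.42, limma adjusted p = 0.074). Snora68, an H/ACA guide, was at 0.717, 0.333 and 0.213 CPM in high-fat islets and at 0 and 0.284 CPM in chow islets, which overlap. Snora74a was at 0.403, 0.528 and 0.25 CPM in high-fat islets and listed at 0 in both chow libraries.

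None of the 98 SNORD names reached a mean of 1 CPM in either diet, and 50 were listed at 0 in all 5 libraries. The 3 shown are the highest one and 2 of ordinary length among the next, with the letters TGATGA and CTGA of boxes C and D in capitals. They are Snord17 (GRCm38 chr2:144265979-144266216, minus strand), Snord32a (chr7:45127382-45127464, minus strand) and Snord104 (chr11:106500993-106501062, plus strand).
Snord17: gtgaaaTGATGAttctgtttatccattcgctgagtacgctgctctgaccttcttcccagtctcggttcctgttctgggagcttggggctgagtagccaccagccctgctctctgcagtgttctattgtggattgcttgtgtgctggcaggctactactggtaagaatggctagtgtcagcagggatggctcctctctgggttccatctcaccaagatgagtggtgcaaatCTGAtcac
Snord32a: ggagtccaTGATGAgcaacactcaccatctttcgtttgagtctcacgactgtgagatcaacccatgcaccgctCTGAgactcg
Snord104: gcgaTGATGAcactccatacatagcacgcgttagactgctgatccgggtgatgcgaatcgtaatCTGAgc
Snord17, of 238 nucleotides, was at 0.886, 0.685 and 0.255 CPM in high-fat replicates 1, 2 and 3 and listed at 0 in both chow libraries. Snord32a, of 83, was at 0.295, 0.171 and 0.0851 CPM in high-fat islets and at 0 and 0.0405 CPM in chow islets. Snord104, of 70, was at 0.211, 0.0571 and 0.0426 CPM in high-fat islets and at 0.106 and 0.0810 CPM in chow islets, which overlap. Snord13, which takes part in acetylation of ribosomal RNA, was at 0.169, 0.0285 and 0.0426 CPM in high-fat islets and at 0.266 and 0 CPM in chow islets, which overlap too. The SNORD names summed to 3.06, 1.91 and 1.47 CPM in high-fat islets and to 1.92 and 0.981 CPM in chow islets, and these ranges overlap, unlike those of the other classes.

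A few SNORD names ran the other way, all of them below 0.5 CPM, below the filter of the main fit and named after their values were seen. Snord14e was listed at 0 in high-fat islets and reached 0.470 and 3e-05 CPM in chow replicates 1 and 3. Those values are worth about 9 reads and less than 1, so its place rests on 1 library. Snord14c was at 0, 0.00033 and 0 CPM in high-fat islets and at 0.227 and 0.120 CPM in chow islets, about 4 and 3 reads. Both lie, with Snord14d, within Hspa8, where all 3 overlap an annotated exon, and this heat-shock protein gene was itself at 201, 167 and 258 CPM in high-fat islets and 144 and 146 CPM in chow islets (log2 difference 0.50 ± 0.17, limma adjusted p = 0.0791). Snord7 and Snord100 were the other members whose high-fat values all lay below the chow values, with means of 0.00951 and 0 CPM in high-fat islets and 0.0671 and 0.0468 CPM in chow islets. Their chow values are worth about 1 and 2 reads for Snord7 and 1 and 1 for Snord100, under the floor of 3 reads. Members lower without overlap were 4 of the 105 above 0 (3.81%), beside 13.5% of all names above 0 in at least 1 library. Without strand or read length, reads of such a guide and of its host's RNA cannot be told apart.

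The letters of the family boxes were counted in all members of each class, detected or not. On the RNA strand, TGATGA lay in the first 25 bases of 69 of 98 SNORD (70.4%), 0 of 40 SNORA and 4 of 9 SCARNA members (44.4%). CTGA lay in the last 20 bases of 96 SNORD (98%), 4 SNORA (10%) and 5 SCARNA members (55.6%). The letters ACA, which end box H/ACA guides, lay in the last 12 bases of 38 SNORA (95%), 9 SNORD (9.18%) and 5 SCARNA members (55.6%). Scarna6 (GRCm38 chr1:87784556-87784820, plus strand) is shown as a called member that carries both box C/D letters, in capitals.
Scarna6: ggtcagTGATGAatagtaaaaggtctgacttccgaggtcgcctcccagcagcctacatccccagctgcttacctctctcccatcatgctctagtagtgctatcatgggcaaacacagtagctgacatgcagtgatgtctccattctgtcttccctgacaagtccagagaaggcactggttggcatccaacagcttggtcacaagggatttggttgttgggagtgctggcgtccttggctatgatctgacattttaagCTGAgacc

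The members were also set apart by the length of the annotated RNA. All 18 members of at least 200 nucleotides were above 0, and in all 18 each high-fat library was above both chow libraries. They include RNAs of both polymerases and of introns. Rn7s1 and Rn7s2 share 1 RNA, as do Rnu3b1 to Rnu3b4, so the 18 members are not all separate RNAs. Of the 153 shorter members, 66 were listed at 0 in each library. Of the 87 others, 9 (10.3%) were higher in each high-fat library and 4 were lower, against 21% higher and 13.5% lower without overlap among the 39352 names above 0 in at least 1 library. The longer members summed to 31441, 26600 and 20889 CPM in high-fat islets and to 10.5 and 17.2 CPM in chow islets, and the shorter ones to 6.50, 3.84 and 3.71 CPM in high-fat islets and to 2.68 and 1.97 CPM in chow islets.

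The same held among the guide RNAs alone. The 7 SNORA, SNORD and SCARNA members of at least 200 nucleotides summed to 99.7, 94.9 and 95.4 CPM in high-fat islets and to 0.610 and 0.278 CPM in chow islets. The 140 shorter ones summed to 4.6, 2.94 and 3.05 CPM in high-fat islets and to 2.67 and 1.97 CPM in chow islets. A mean of at least 1 CPM in high-fat islets was reached by 0 of 90 members under 100 nucleotides, 0 of 54 from 100 to under 150, 1 of 9 from 150 to under 200, 2 of 8 from 200 to under 250, and 9 of 10 with 250 or more. The members on either side of 200 nucleotides are Snora73a and Snora73b with 205 and Snora74a with 196. This value was chosen after the levels were seen. Across the 171 members Spearman's rho between length and mean level was 0.386 in high-fat islets and 0.138 in chow islets, a description over RNAs that share the same libraries.

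**Figure D2:**
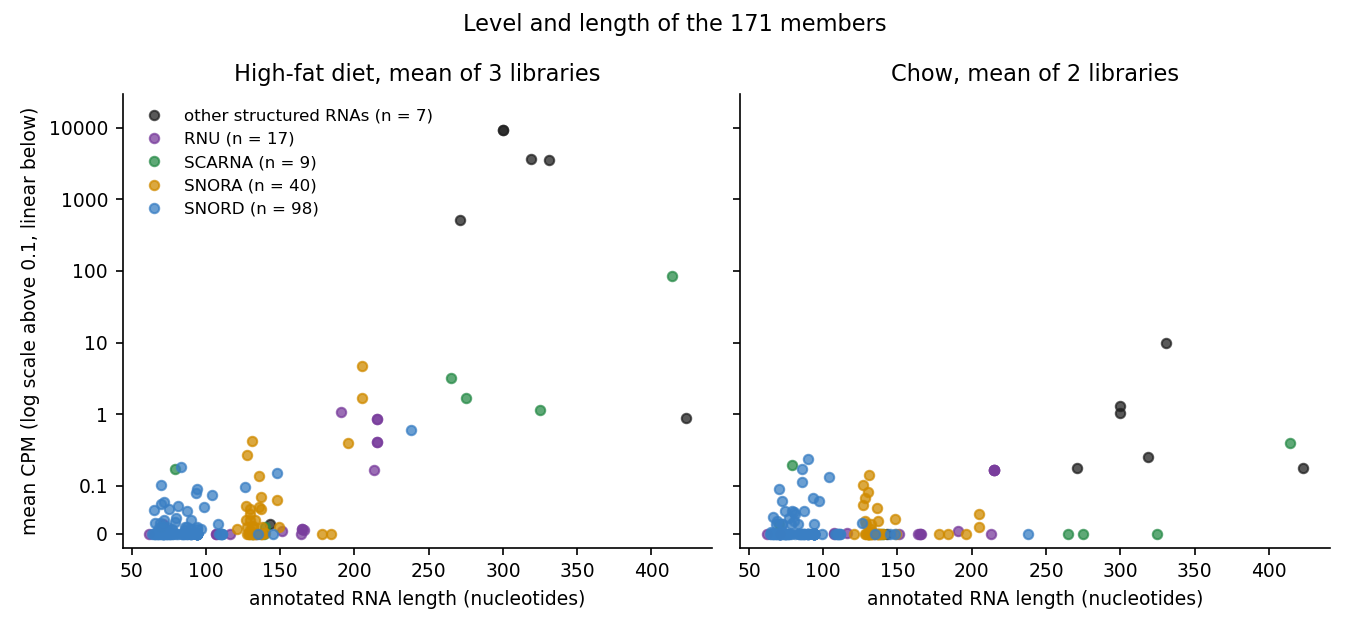
Mean CPM of the 171 members against the length of the annotated RNA in nucleotides, in high-fat islets on the left (3 libraries) and chow islets on the right (2 libraries), coloured by class, on an axis that is logarithmic above 0.1 CPM and linear below. In high-fat islets the points under 200 nucleotides stay at or below 1.08 CPM and those above reach 9216 CPM, while in chow islets the highest is 9.79 CPM.

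Rows of the table outside the naming rule that the annotation calls snRNA, snoRNA, scaRNA, miscellaneous RNA or ribozyme were examined as well. There were 3313 of them, mostly gene copies with clone-style names. They summed to 521, 448 and 291 CPM in high-fat islets and to 46.7 and 35.9 CPM in chow islets. A mean of at least 1 CPM in high-fat islets was reached by 0% of those under 100 nucleotides and by 0.15%, 3.87%, 5.48% and 5.09% of those from 100 to under 150, 150 to under 200, 200 to under 250, and 250 or more, so that above 150 nucleotides the share changed little with length. Some of the highest were shorter than 200 nucleotides, such as the scaRNA Gm22442, of 144, at a mean of 9.67 CPM in high-fat islets and listed at 0 in chow islets, and the snRNA Gm23405, of 160, at 8.08 CPM in high-fat islets and 0.0266 CPM in chow islets. Both were chosen after their values were seen. Of the 38 that passed the filter, 33 were called higher and 2 lower, beside 14.9% and 8.78% of all tested names. Again most passed through their high-fat libraries, so this count carries no weight. The copies with the highest levels were those of 7SL RNA. From a chosen list of structured or long nuclear RNAs, 12 were tested. Of these, 4 were called higher (33.3%) and 2 lower (16.7%), beside 14.9% and 8.78% of all tested names. The list may share RNAs with the 38, such as the Rpph1 copies Rprl2 and Rprl3, which were both called higher.

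In that list the long RNAs went in both directions. Malat1, a long nuclear RNA, was at 2068, 3036 and 2442 CPM in high-fat islets and at 347 and 643 CPM in chow islets (log2 difference 2.39 ± 0.32, limma adjusted p = 0.00342). Neat1, another long nuclear RNA of the list, was at 57.5, 90.1 and 64.7 CPM in high-fat islets. In chow islets Neat1 was at 95.1 and 77.8 CPM, and it was not called (log2 difference -0.30 ± 0.19, limma adjusted p = 0.282). Rprl3, a copy of Rpph1 with 94.1% identity over the aligned bases, was at 1.63, 0.8 and 1.63 CPM in high-fat islets and listed at 0 in both chow libraries (limma adjusted p = 0.00923). Gas5, a spliced host RNA of box C/D guides, was at 9.38, 9.36 and 9.83 CPM in high-fat islets and at 21.3 and 22.1 CPM in chow islets (log2 difference -1.11 ± 0.10, limma adjusted p = 0.000541). Snhg12, another host RNA, differed by -0.79 ± 0.13 (limma adjusted p = 0.00798).

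The 137 members inside host genes lie in 87 hosts, of which 82 were tested. Of these, 7 were called higher (8.54%) and 9 lower (11%), beside 14.9% higher and 8.78% lower over all tested names. The median log2 difference of the hosts was -0.10, against 0.05 over all tested names. For 75 members the host was at 10 CPM or more in both diets. Of these 75 members, 1 reached 1 CPM in high-fat islets and 0 in chow islets, and 30 were listed at 0 throughout. The largest group inside 1 host is that of Snhg14, the long host RNA of the imprinted Snord116 cluster, which holds 17 members. The host was at a mean of 2.60 CPM in high-fat islets and 3.51 CPM in chow islets, and 16 of its 17 members were listed at 0 in each library.

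Hosts of the named guides are given with their values. Gm28285, which holds Snora74a, was at a mean of 0.0906 CPM in high-fat islets and listed at 0 in chow islets. Atg16l1, which holds Scarna6, was at 28.6, 27.5 and 26.7 CPM in high-fat islets and at 19.1 and 24.4 CPM in chow islets (log2 difference 0.34 ± 0.11, limma adjusted p = 0.0736). Ncapd2, which holds Scarna10, differed by 0.53 ± 0.14 (limma adjusted p = 0.0381). Rcc1, which holds the Snora73 pair, was at 2.24, 2.94 and 3.58 CPM in high-fat islets and at 2.98 and 3.20 CPM in chow islets (log2 difference -0.08 ± 0.18, limma adjusted p = 0.793), and Snhg3, which also spans the pair, differed by 0.58 ± 0.13 (limma adjusted p = 0.0227). Snx5, with Snord17, differed by -0.19 ± 0.07 (limma adjusted p = 0.108), and Rpl13a, with Snord32a, by -0.26 ± 0.16 (limma adjusted p = 0.26). The call of Ncapd2 was lost without high-fat replicate 2 or 3 or without either chow replicate, with limma adjusted p up to 0.113, and that of Snhg3 without any 1 high-fat replicate or chow replicate 1, with limma adjusted p up to 0.094.

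Of 124 tested genes in 12 lists of proteins that bind, process or transcribe these RNAs, 10 were called higher (8.06%) and 11 lower (8.87%), beside 14.9% and 8.78% of all names, with a median log2 difference of 0.04 against 0.05 over all tested names. Among the 5 core box C/D proteins, Nop58 was called, at 21.1, 21.1 and 21.1 CPM in high-fat islets and at 25.8 and 27.5 CPM in chow islets (log2 difference -0.32 ± 0.08, limma adjusted p = 0.0323). Among the 6 box H/ACA proteins 0 were called by limma, with 2 higher and 1 lower at an unadjusted p below 0.05, and among the 3 vault proteins 0 were called, with 1 higher and 0 lower. SNAPc starts snRNA genes and Integrator cuts snRNA ends. Of their 16 tested genes, limma called 3 higher (18.8%, beside 14.9% of all tested names) and 0 lower. At an unadjusted p below 0.05 the counts were 6 and 0, with no share of all names at that level counted. Ints5 was at 31.1, 27.0 and 29.5 CPM in high-fat islets and at 15.4 and 19.6 CPM in chow islets (log2 difference 0.71 ± 0.12, limma adjusted p = 0.00902), and Ints3 and Ints1 differed by 0.53 ± 0.10 (limma adjusted p = 0.0123) and 0.45 ± 0.11 (limma adjusted p = 0.0316).

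Of the 20 partner genes named here, 7 kept their call when any 1 of the 5 libraries was left out, namely Tert, Lsm5, Pdcd7, Zcrb1, Srp54a, Ints3 and Ints5. Without a chow library that diet has 1 library, which is assumed to vary like the high-fat ones. For Nop58, Lsm4, Snrpa1, Pop4 and Polr3b the call was lost without each of the 5 libraries, with limma adjusted p up to 0.0985, 0.132, 0.114, 0.207 and 0.152. Hexim1, Ints1, Polr3d and Gtf3c6 lost it without any 1 high-fat replicate or chow replicate 1, with limma adjusted p up to 0.0965, 0.0963, 0.153 and 0.192. Snrpe and Snrpf lost it without high-fat replicate 2 or 3 or either chow replicate, up to limma adjusted p = 0.0983 and 0.172. Gtf3c1 lost it without high-fat replicate 2 or 3 or chow replicate 1, up to limma adjusted p = 0.0629, and Rnpc3 without high-fat replicate 1 or 2 or chow replicate 3, up to limma adjusted p = 0.0639. With library sizes computed without the members, acinar and insulin genes, which put the median log2 difference of all names at -0.23, the higher calls of Hexim1, Ints1, Ints3, Ints5, Gtf3c1, Lsm4, Polr3b and Polr3d were lost, and Polr3b stood at -0.0061. Tert and Pdcd7 were called higher there too.

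**Figure D3:**
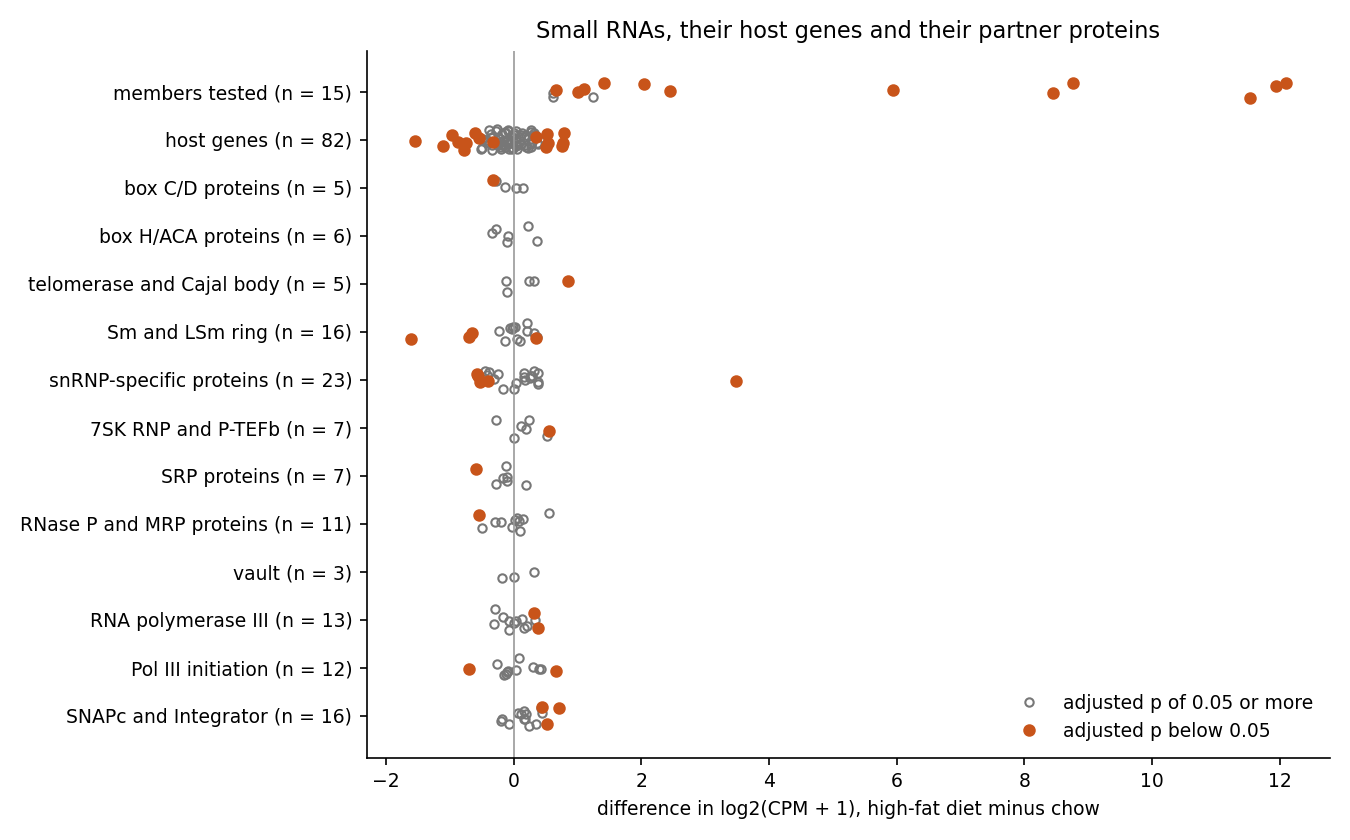
Difference in log2(CPM + 1), high-fat islets minus chow islets, of the 15 tested members, 82 tested host genes and 12 lists of partner protein genes, with filled points for a limma adjusted p below 0.05 and the number tested beside each name. The members run up to 12.10, whereas the hosts lie between -1.55 and 0.79 and the partner genes, apart from Pdcd7 at 3.48, between -1.61 and 0.85.

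Within the high-fat group the RNAs did not rank the libraries alike. Of the 12 members with a mean of at least 1 CPM there, 8 were highest in replicate 1, 1 in replicate 2 and 3 in replicate 3, and 3, 3 and 6 were lowest in replicates 1, 2 and 3. The coefficient of variation ran from 2.28% for Scarna2 to 97.3% for Snora73a. Rn7s1 in replicate 1 was 1.80 times its level in replicate 3, Rmrp 1.57 times and Scarna6 1.91 times, whereas Rn7sk was 0.922 times and Scarna2 0.961 times. The acinar share was also highest in replicate 1 and lowest in replicate 2, and its part in these values was not tested. Between the diets the acinar share overlapped, and its part in the differences between the diets was not tested either.

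**Figure D4:**
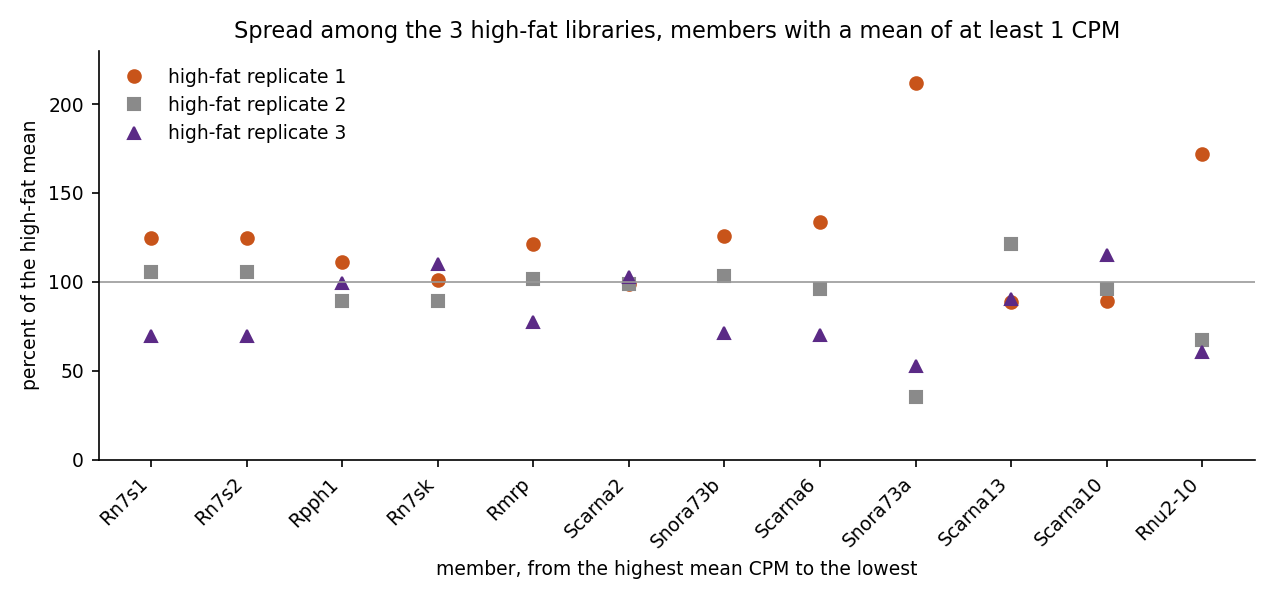
Level of the 12 members with a mean of at least 1 CPM in each of the 3 high-fat libraries, as a percent of the member's mean over those libraries. Scarna2 lies within 98.6% and 103% of its mean, Rn7s1 between 69.4% and 125%, and Snora73a and Rnu2-10 reach 212% and 172% in replicate 1.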

How the data were processed

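The deposited table held 1 signal column per sample, and Partek is the tool that the submitters' processing notes name. Its unit was read from the values: the lowest value of every column was exactly 1, and after subtracting 1 the low values clustered at whole multiples of a library-specific step. The authors' signal was therefore taken as CPM plus 1. Of the low values, 64.6% to 70% were whole reads within 0.1, so reads were not recovered. Partek's version, the aligner, the build and the way of counting remain not given in the sources used here. Columns left out for lack of a label numbered 0.

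Differences were fitted with limma 3.58.1 in R 4.3.3, with a trend in the variance prior, and the fit was tested on simulated data. Fold changes on the log2(CPM + 1) scale understate low RNAs. Names, lengths, hosts and sequences came from GENCODE M21 (GRCm38), which may differ from the authors' annotation; all 171 members matched by name. Polymerases were assigned from general knowledge. RNAs and genes named are those of the 7 single names, RNU members above 0.5 CPM in at least 1 library, and per guide class up to 6 called in each direction and the 4 highest, with their hosts and up to 4 called genes per list. Some of the host genes and sequences are not reported here. The members and lists were chosen with earlier results of these data known. Alternatives were other pseudocounts, filters, scalings and variance priors, all 6 columns, and leaving out each library.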

Additional observations from a re-analysis of the deposited data

How the results depend on the processing

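The count of members called higher was 12 and lay between 10 and 13 under the other settings, except with a filter at a mean of 2 CPM, where 7 of 7 tested members were called. Leaving out each high-fat library gave 10 to 11. The count called lower was 0 in each of these settings. Where a filter applied, members passed it mostly through their high-fat libraries, so these counts carry no weight. With the filter at a mean of 2 CPM, 17.1% of all tested names were called higher and 9.5% lower. Among the single values of the 12 called members, 139 kept the call and 9 lost it, and among those of the 3 uncalled ones, 30 stayed uncalled and 3 gained a call (Snora73a in each case), with 0 changes of sign. Terc lost it with no filter (limma adjusted p = 0.101) and with library sizes computed without the members, acinar and insulin genes (0.0507), and Rnu2-10 with no filter (0.115). Over all names, 2524 were called higher and 1487 lower. These counts were 4224 and 2828 with all 6 columns, 1080 and 573 with no filter, and 839 and 3916 with the library sizes without those genes, which put the median log2 difference of all names at -0.23 against 0.05 and the share of higher calls at 17.6% against 62.9%. With median-ratio scaling 1995 were higher and 1943 lower, a share of 50.7%. Leaving out each library gave 1167 to 2969 higher and 682 to 1415 lower. Log2 differences changed sign for Polr3b with the changed library sizes (-0.0061), and on leaving out a library for Rcc1 (from -0.19 without high-fat replicate 3 to 0.056 without high-fat replicate 1) and Rpl13a (from -0.54 without chow replicate 3 to 0.014 without chow replicate 1), and the cause was not tested. No paired analysis was possible because the replicate numbers only follow the order of deposit. Depth limits the members below about 0.1 CPM, where presence and absence could not be separated.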
